A study of Mus musculus with 32 samples.

Results

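The genes described here encode 10 growth factors and cytokines that macrophages and microglia can release and to which glioma cells can respond: Igf1, Hgf, Pdgfa, Pdgfb, Pdgfc, Hbegf, Tgfa, Areg, Osm and Grn. They were chosen by symbol, and 9 of the 10 have a row among the 17586 genes of the deposited expression table. The remaining one, Areg, which encodes amphiregulin, was not analysed here. RNA was sequenced from myeloid cells sorted out of mouse brain, in 4 populations of 8 libraries each. Differentiated and undifferentiated tumour macrophages, together with tumour microglia, came from chimeric mice bearing intracranial GL-261 tumours, GL-261 being a glioma line of C57BL/6 origin that forms tumours in immunocompetent mice. In each of these populations 4 libraries came from wild-type C57BL/6J recipients that had been given Pep3/CD45.1 cells, and 4 from Pep3/CD45.1 recipients that had been given wild-type cells. Normal microglia came from mice labelled Nil, with a strain but neither tumour nor graft, 4 libraries from wild-type and 4 from Pep3/CD45.1 mice. All tumours were of this single glioma line, no other allele or agent was labelled, and neither the ages of the mice nor the sorting gates were given in the sources used here.

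These factors act through a few receptor systems. Insulin-like growth factor 1 and hepatocyte growth factor signal through the receptor tyrosine kinases Igf1r and Met, the PDGF chains pair into dimers that bind Pdgfra and Pdgfrb, and heparin-binding EGF, transforming growth factor alpha and amphiregulin are released from the cell surface by ADAM proteases and bind the EGF receptor. Oncostatin M signals through Osmr paired with Il6st, the gp130 chain, and progranulin, the product of Grn, is a lysosomal protein that is also secreted and is taken up through sortilin. In glioma, PDGF, EGF receptor and Met signalling are known drivers of tumour cell growth, and oncostatin M from macrophages is known to push glioma cells towards a mesenchymal-like state.

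The deposited values are scores, signed numbers centred at 0 for each gene, which run from -6.50 to 6.92. They allow libraries to be compared within a gene, but give no fold change and no ranking of 1 gene above another, and sequencing depth is unknown. The table carries no variation along 11 directions among the 32 libraries, and 9 libraries kept under 50% of their own variation. Of these, 2 are differentiated macrophage libraries, 2 are undifferentiated macrophage libraries, 1 is a tumour microglia library and 4 are normal microglia libraries. Per the labels, experiment 3 held macrophages from wild-type recipients with tumour microglia from Pep3/CD45.1 recipients and experiment 4 the reverse, whereas normal microglia came from experiments of their own, so for every difference from normal microglia the tumour, the graft and the experiment cannot be told apart. Marker genes were set beside the labels, with lists chosen when earlier results of these data were known, so they are no independent check. All 8 measured microglia markers were lower in both macrophage populations than in tumour microglia, beside 6.35% of all genes in differentiated and 5.19% in undifferentiated macrophages. Their mean scores were -2.35 to -0.452 in differentiated macrophages, -2.34 to -0.809 in undifferentiated macrophages, 0.705 to 1.57 in tumour microglia and 1.48 to 2.53 in normal microglia. Of 10 markers of monocyte-derived macrophages, 9 were higher in differentiated and 10 in undifferentiated macrophages than in tumour microglia, beside 37% and 36.7% of all genes. Their mean scores were 0.275 to 2.37, 1.0 to 2.96 and -1.74 to -0.826 in these 3 populations and -2.25 to -1.18 in normal microglia. Since each gene is centred at 0, the absence of a marker cannot be read from these scores.

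More of the growth factors passed between macrophages and tumour microglia than between any other pair of populations. In differentiated macrophages against tumour microglia, Igf1, Hgf, Pdgfc and Hbegf rose and Pdgfb fell. That is 4 of 9 genes higher and 1 of 9 lower, beside 37% and 6.35% of all genes (43.4% in either direction). The same 5 genes passed in the same directions in undifferentiated macrophages against tumour microglia, where 36.7% of all genes were higher and 5.19% lower (41.9% in either direction). Both macrophage comparisons use the same tumour microglia libraries and are not independent. The number of growth factors that were higher is close to the background of these comparisons. None of the 9 passed between differentiated and undifferentiated macrophages, a comparison in which 0.0114% of all genes (2 genes) passed and 491 had an unadjusted p under 0.05.

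Against normal microglia fewer of them passed. In differentiated macrophages Igf1 and Pdgfc rose and Pdgfa and Pdgfb fell, 2 and 2 of 9, beside 24.7% and 8.02% of all genes (32.7% in either direction). Undifferentiated macrophages differed from normal microglia in Pdgfb, 1 of 9, which fell, beside 28% of all genes called in either direction, 21.8% higher and 6.18% lower. Tumour microglia differed from normal microglia in Hbegf, 1 of 9, which fell, beside 16.7% called in either direction, 4.66% higher and 12% lower. Single libraries moved these shares of all genes. The share called in either direction in tumour microglia against normal microglia was 0.972% without normal microglia library 1, 4.47% without library 10, 3.84% without library 18, 8.44% without library 26 and 4.22% without tumour microglia library 27. In differentiated macrophages against tumour microglia it was 28.7% without differentiated macrophage library 28 and 27.8% without tumour microglia library 27, and in undifferentiated macrophages it was 24.9% without differentiated macrophage library 31. Against normal microglia it was 10.5% to 21.6% in differentiated macrophages without normal microglia library 1, 10 or 26, undifferentiated macrophage library 8, or differentiated macrophage library 28 or 31. In undifferentiated macrophages it was 11% to 17.7% without normal microglia library 1, 2, 10 or 26, differentiated macrophage library 31 or undifferentiated macrophage library 29. A gene passed at an adjusted p under 0.05 in limma's moderated test, adjusted by the Benjamini-Hochberg method over all 17586 genes. Whether each library came from its own animal is not stated in the labels, so the p-values reflect variation among libraries that may in part be technical. In sorted pools of cells, fewer cells of a type and less RNA per cell cannot be told apart.

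**Figure D1:**
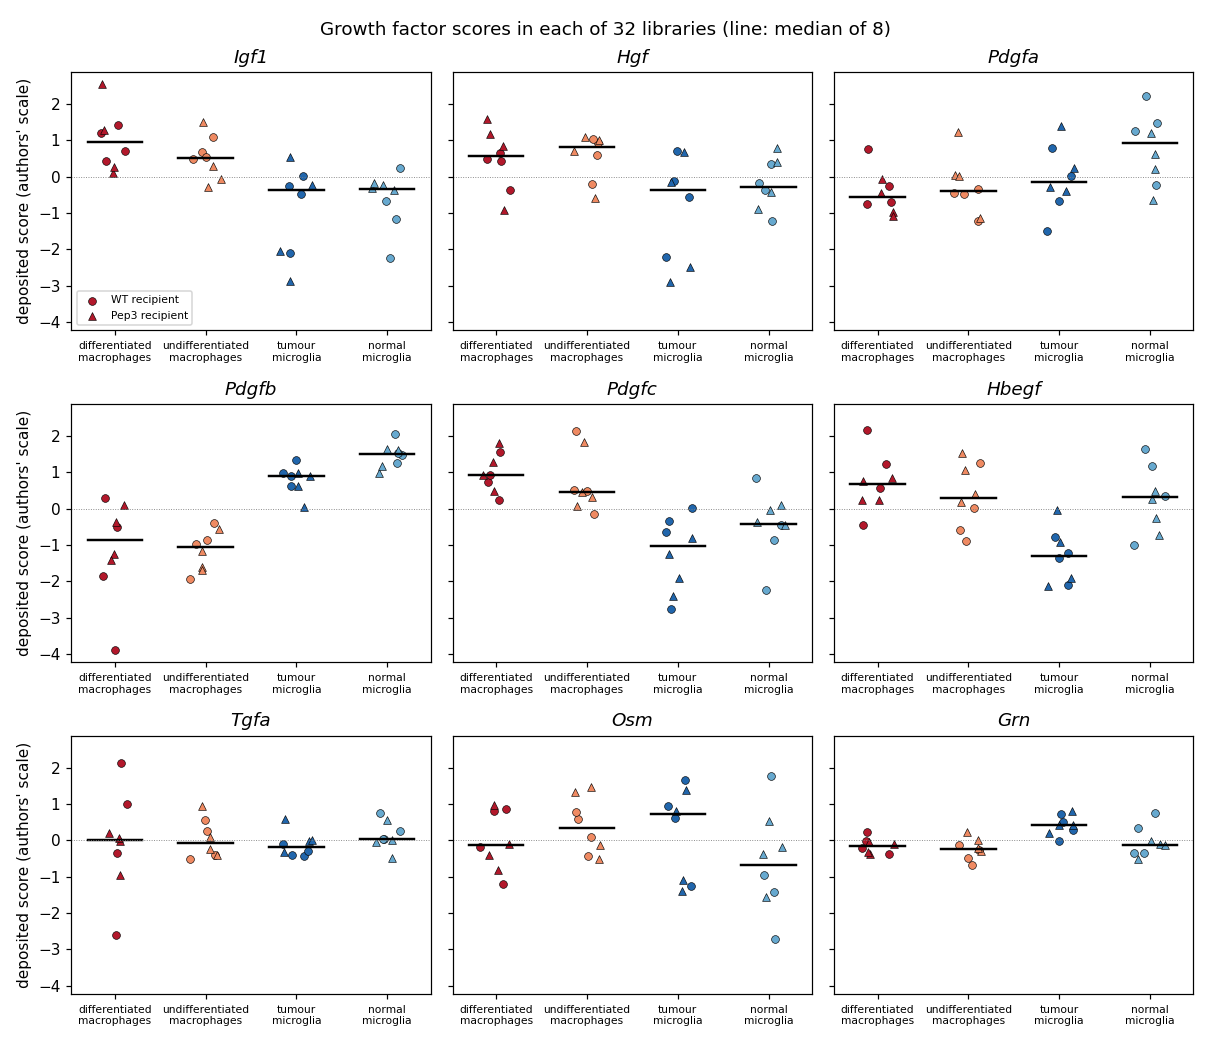
Deposited score (vertical axis, centred at 0 for each gene, no unit) of each of the 9 growth factor genes in each of the 32 libraries; points are libraries (circles, wild-type recipients; triangles, Pep3/CD45.1 recipients) and lines are medians of 8 libraries per population. Pdgfb lies below 0 in all 8 undifferentiated macrophage libraries and above 0 in all 8 libraries of both microglia populations, while Pdgfc and Igf1 lie above 0 in all 8 differentiated macrophage libraries.

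Igf1, a growth and survival factor that microglia also make in development and repair, was highest in differentiated macrophages. Its lowest, median and highest scores there were 0.0931, 0.961 and 2.56, and those of undifferentiated macrophages were -0.272, 0.516 and 1.51. Tumour microglia had -2.87, -0.351 and 0.550, and normal microglia -2.23, -0.348 and 0.240. Every differentiated macrophage library lay above 0, but the highest tumour microglia and normal microglia libraries overlapped the lowest macrophage libraries. The fitted difference of differentiated macrophages from tumour microglia was 2.24 ± 0.500 (SE; adjusted p = 0.00111), and that of undifferentiated macrophages from tumour microglia was 1.6 ± 0.522 (adjusted p = 0.0174). In the order of mean scores, differentiated macrophages were followed by undifferentiated macrophages, normal microglia and tumour microglia, and no pair of neighbours in that order differed beyond the spread of its libraries. Differentiated macrophages exceeded normal microglia by 1.71 ± 0.485 (adjusted p = 0.0111), whereas the difference of undifferentiated macrophages from normal microglia, 1.06 with a 95% interval of -0.00605 to 2.13, did not pass (adjusted p = 0.123). The deposited means of differentiated macrophages and tumour microglia differed by 2.09 in experiment 3 and by 1.75 in experiment 4, and those of undifferentiated macrophages and tumour microglia by 1.85 and 1.07.

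The Igf1 differences were sensitive to single libraries. Without differentiated macrophage library 28 the difference of differentiated macrophages from tumour microglia was 1.86 (adjusted p = 0.0501) and that from normal microglia 1.39 (adjusted p = 0.122). The difference from normal microglia also lost its call without normal microglia library 2 (1.31) or 10 (1.64). The difference of undifferentiated macrophages from tumour microglia no longer passed without differentiated macrophage library 28 (1.36) or 31 (1.66), undifferentiated macrophage library 8 (1.47) or tumour microglia library 27 (1.20).

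Over all 32 libraries the gene whose scores were most like those of Igf1 was Pdgfc, another of the listed factors, with a Pearson r of 0.865. Next came Six4, a homeobox transcription factor, with r = 0.861. These likenesses describe libraries that share the population differences. The 250 bases before the annotated starts of both genes are shown because Pdgfc was the gene most like Igf1 by this measure. They are RefSeq sequences of build GRCm38.p6, given 5′ to 3′ on the + strand, from chr10:87860861-87861110 for Igf1 and chr3:81036166-81036415 for Pdgfc; capitals mark motif matches.
Igf1: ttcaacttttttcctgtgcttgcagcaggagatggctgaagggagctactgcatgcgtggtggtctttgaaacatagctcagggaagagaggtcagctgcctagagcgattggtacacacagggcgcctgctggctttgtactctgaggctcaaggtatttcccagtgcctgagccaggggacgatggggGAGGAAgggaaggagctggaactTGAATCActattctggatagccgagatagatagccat
Pdgfc: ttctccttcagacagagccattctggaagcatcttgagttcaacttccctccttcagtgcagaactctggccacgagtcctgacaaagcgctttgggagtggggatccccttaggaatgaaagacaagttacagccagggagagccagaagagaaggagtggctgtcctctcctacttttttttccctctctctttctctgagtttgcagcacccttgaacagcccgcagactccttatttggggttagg
Both strands were searched for GAGGAA, the purine-rich PU box bound by the myeloid factor PU.1, for TGANTCA, the AP-1 site, for TATAAA and for GGGCGG, the GC box. The Igf1 window holds GAGGAA from 60 to 55 bases before the start and TGAATCA, a match to TGANTCA, from 37 to 31 bases before it. The Pdgfc window holds none of the 4 motifs. Among 32851 mouse promoter windows of the same length, 23.3% hold GAGGAA, 6.75% TGANTCA, 12.4% TATAAA and 32.7% GGGCGG, so these matches are common and describe letters, not bound sites.

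Of 9 measured partners of Igf1 (receptors, binding proteins, adaptor), 5 rose, 0 fell and 4 did not pass in differentiated macrophages against tumour microglia, where 37% of all genes rose. The counts were the same in undifferentiated macrophages, where 36.7% of all genes rose. The largest differences in differentiated macrophages were those of Irs1, the adaptor that docks to the activated receptor (2.27), the binding proteins Igfbp5 (2.08) and Igfbp3 (1.93), and Igf2, the sister ligand (1.58). The receptor gene Igf1r rose by 1.0 ± 0.330 (adjusted p = 0.0171). In tumour microglia against normal microglia 3 of the 9 fell, beside 12% of all genes, namely Irs1 (-1.39), Igfbp5 (-1.32) and Igf1r (-1.08).

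Hgf, the ligand of Met, had a pattern close to that of Igf1 with wider spread in tumour microglia. The lowest, median and highest Hgf scores were -0.914, 0.566 and 1.59 in differentiated macrophages, -0.574, 0.818 and 1.10 in undifferentiated macrophages, -2.91, -0.353 and 0.703 in tumour microglia and -1.22, -0.275 and 0.801 in normal microglia. All 4 populations overlapped, and 3 tumour microglia libraries, at -2.91, -2.49 and -2.22, lay far below the other 5. The difference from tumour microglia was 1.6 ± 0.542 in differentiated macrophages (adjusted p = 0.0207) and 1.83 ± 0.566 in undifferentiated macrophages (adjusted p = 0.0125), and neither population differed from normal microglia beyond the spread (0.660 and 0.893, adjusted p = 0.336 and 0.231). After the median score of each library was subtracted, neither of the Hgf differences from tumour microglia passed (0.928 in differentiated and 1.11 in undifferentiated macrophages, adjusted p = 0.159 and 0.118). Without tumour microglia library 27 they were 1.05 and 1.32, without undifferentiated macrophage library 29 they were 1.12 and 1.33, and without differentiated macrophage library 31 they were 1.09 and 1.07, none of which passed. The difference in differentiated macrophages was also lost without differentiated macrophage library 4 (1.45), undifferentiated macrophage library 8 (1.55) or tumour microglia library 30 (1.32). Undifferentiated macrophages passed against normal microglia without normal microglia library 10 (1.84, adjusted p = 0.0351). Col25a1 (r = 0.881) and A730069N07Rik (r = 0.867) were the genes most like Hgf over the 32 libraries.

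Met itself did not differ between differentiated macrophages and tumour microglia beyond the spread (-0.05, adjusted p = 0.930). Of 8 partners of Hgf, 3 rose and 0 fell in undifferentiated macrophages against tumour microglia, beside 36.7% of all genes higher and 5.19% lower. In differentiated macrophages 3 rose and 2 fell, beside 37% higher and 6.35% lower. Mst1r, the sister receptor of Met, rose by 2.26 and Cd44, a co-receptor, by 1.67, while the cell-surface serine proteases Hpn (-1.55) and St14 (-1.35), both activators of the Hgf precursor, fell. Cd44 was also the single partner of the 8 that rose in tumour microglia against normal microglia (1.44), beside 4.66% of all genes.

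The 3 PDGF chain genes went different ways. Pdgfb, which encodes a chain that binds both PDGF receptors, was the gene of the list with the clearest separation. From the lowest through the median to the highest library, it scored -3.90, -0.866 and 0.294 in differentiated macrophages, -1.93, -1.07 and -0.403 in undifferentiated macrophages, 0.0486, 0.890 and 1.35 in tumour microglia, and 0.981, 1.5 and 2.05 in normal microglia. No undifferentiated macrophage library reached any microglia library of either kind, and no differentiated macrophage library reached a normal microglia library. The libraries of 8.09% of all genes did not overlap between undifferentiated macrophages and tumour microglia, 8.71% between undifferentiated macrophages and normal microglia and 8.46% between differentiated macrophages and normal microglia.

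Pdgfb fell by 1.88 ± 0.482 in differentiated macrophages against tumour microglia (adjusted p = 0.00328) and by 2.15 ± 0.503 in undifferentiated macrophages (adjusted p = 0.00181). Against normal microglia the falls were larger in the fit, -2.53 ± 0.468 in differentiated macrophages (adjusted p = 0.000467) and -2.80 ± 0.499 in undifferentiated macrophages (adjusted p = 0.000385). Only 1.23%, 0.699%, 0.836% and 0.540% of all genes had a lower difference in these 4 comparisons, taken in the same order. Tumour microglia scored below normal microglia by -0.648 with a 95% interval of -1.61 to 0.312, which did not pass (adjusted p = 0.357). Both differences of undifferentiated macrophages and that of differentiated macrophages from normal microglia passed in all 32 fits that each left out 1 library, whereas the difference of differentiated macrophages from tumour microglia was -1.24 without differentiated macrophage library 28 (adjusted p = 0.162). The deposited means of differentiated macrophages and tumour microglia differed by -2.12 in experiment 3 and -1.70 in experiment 4.

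The genes most like Pdgfb over the 32 libraries were Ecscr, a cell-surface protein described in endothelial cells (r = 0.936), and Hdac10, a histone deacetylase family member (r = 0.913). Endothelial cells are a known source of Pdgfb. Of the measured endothelial and mural cell markers, 5 of 6 were higher in differentiated macrophages than in tumour microglia, beside 37% of all genes, and the part of these cells in the Pdgfb differences was not tested. Their mean score ran from -0.139 to 1.36 in differentiated macrophages, from -0.101 to 1.48 in undifferentiated macrophages, from -1.34 to -0.0461 in tumour microglia and from -1.14 to -0.123 in normal microglia.

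Pdgfc, which encodes a chain that needs proteolytic activation and acts mainly through Pdgfra, ran opposite to Pdgfb. Its lowest, median and highest scores were 0.236, 0.916 and 1.79 in differentiated macrophages, -0.138, 0.460 and 2.15 in undifferentiated macrophages, -2.75, -1.03 and 0.0235 in tumour microglia, and -2.25, -0.410 and 0.844 in normal microglia. Every differentiated macrophage library lay above every tumour microglia library, as was the case in 1 direction or the other for 8.4% of all genes, while the other pairs of populations overlapped. The differences from tumour microglia were 2.59 ± 0.439 in differentiated macrophages (adjusted p = 0.000106) and 2.29 ± 0.458 in undifferentiated macrophages (adjusted p = 0.000529). Both passed in all 32 fits that each left out 1 library. Experiments 3 and 4 gave differences of deposited means of 2.45 and 2.05 for differentiated macrophages and 2.34 and 1.59 for undifferentiated macrophages.

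Differentiated macrophages also scored above normal microglia in Pdgfc, by 1.47 ± 0.426 (adjusted p = 0.0125). That call was lost without differentiated macrophage library 28 (1.17), undifferentiated macrophage library 8 (1.24), or normal microglia library 2 (1.20) or 10 (1.12). The corresponding difference of undifferentiated macrophages, 1.17 ± 0.454, missed the threshold (adjusted p = 0.0563), and so did that of tumour microglia from normal microglia, -1.12 ± 0.423 (adjusted p = 0.0699). Both of these passed in some fits without 1 library: the first without tumour microglia library 3, 27 or 30 or normal microglia library 1, 25 or 26 (1.18 to 1.88), the second without tumour microglia library 3 or 30 or normal microglia library 2 or 9 (-1.47 to -1.29). Sh2d2a, a T cell adaptor (r = 0.949), and Eml1, a microtubule-associated protein (r = 0.935), were the genes most like Pdgfc.

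Pdgfa, which encodes the chain that as a homodimer binds Pdgfra alone, was highest in normal microglia. Its lowest, median and highest scores were -1.08, -0.566 and 0.754 in differentiated macrophages, -1.21, -0.388 and 1.23 in undifferentiated macrophages, -1.49, -0.131 and 1.40 in tumour microglia and -0.627, 0.917 and 2.23 in normal microglia. All populations overlapped. Pdgfa passed in differentiated macrophages against normal microglia (-1.28 ± 0.450, adjusted p = 0.0335), where 1 library can end the call: it was lost in 12 of the 32 fits that left out 1 library, with differences from -1.68 to -0.540, the smallest without normal microglia library 1. The other losses came without differentiated macrophage library 4, 7, 20, 23, 28 or 31, undifferentiated macrophage library 29, or normal microglia library 10, 18, 25 or 26. Differences from tumour microglia were -0.588 in differentiated and -0.314 in undifferentiated macrophages and did not pass (adjusted p = 0.321 and 0.636), although without undifferentiated macrophage library 8 the first of them was -1.35 (adjusted p = 0.0322) and the difference of undifferentiated macrophages from normal microglia was -1.38 (adjusted p = 0.0242), against -1.0 with all libraries. Lamb2, a laminin chain (r = 0.812), and Taok2, a kinase (r = 0.759), were most like it.

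Of 8 measured receptors and processing enzymes of the PDGF system, 5 rose, 1 fell and 2 did not pass in differentiated macrophages against tumour microglia, beside 37% of all genes higher and 6.35% lower. The counts were the same in undifferentiated macrophages, beside 36.7% and 5.19% of all genes. Pdgfra rose by 1.93 ± 0.415 (adjusted p = 0.000838) and Pdgfrb by 1.18 (adjusted p = 0.0480) in differentiated macrophages, Plat, the protease known to activate the Pdgfc product, by 1.89, and Pdgfrl, a receptor-like gene, by 1.78. The one that fell was Nrp1, a co-receptor that also binds VEGF (-0.79). In tumour microglia against normal microglia Pdgfra was the single partner of the 8 to pass (-1.34), beside 16.7% of all genes.

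**Figure D2:**
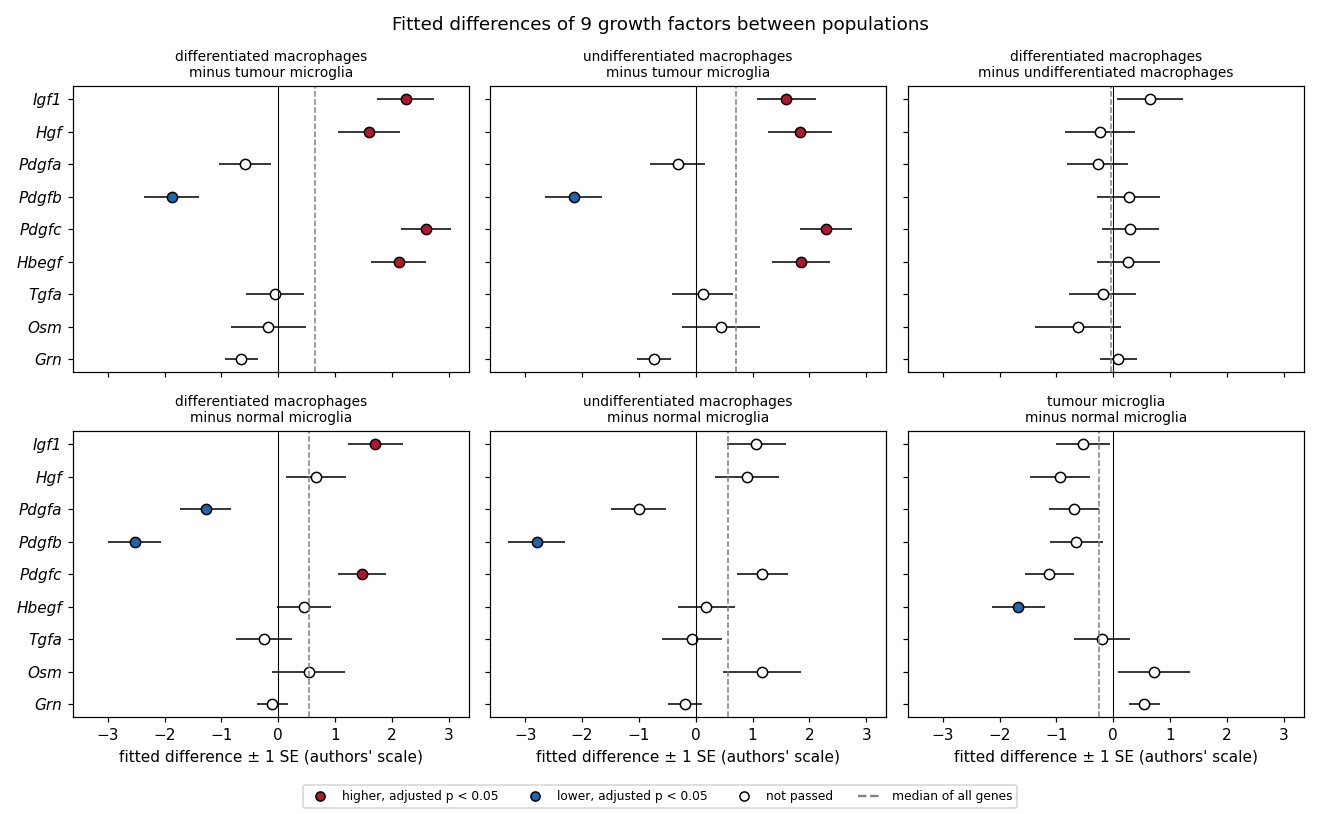
Fitted difference in deposited score (horizontal axis) for each of the 9 growth factor genes in 6 comparisons; points are limma estimates over 32 libraries, horizontal lines are 1 SE, dashed lines are the median of all genes, and coloured points passed an adjusted p of 0.05. Pdgfb lies left of 0 in all 4 macrophage against microglia panels, Igf1, Hgf, Pdgfc and Hbegf lie right of 0 in both comparisons of macrophages with tumour microglia, and no gene is coloured between the macrophage populations.

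Hbegf, which encodes heparin-binding EGF, was the factor that set tumour microglia apart from the other 3 populations. At the lowest, median and highest library its scores were -0.441, 0.669 and 2.15 in differentiated macrophages, -0.890, 0.284 and 1.52 in undifferentiated macrophages, -2.13, -1.3 and -0.0336 in tumour microglia and -1.0, 0.306 and 1.65 in normal microglia. No tumour microglia library reached 0, although their upper end overlapped the lower end of each other population (the libraries of 1.77% of all genes did not overlap between tumour and normal microglia). Tumour microglia scored lower than normal microglia by -1.67 ± 0.469 (adjusted p = 0.0182), with deposited means that differed by -1.92 in wild-type and -1.19 in Pep3/CD45.1 recipients. Differentiated macrophages scored higher than tumour microglia by 2.12 ± 0.486 (adjusted p = 0.00139) and undifferentiated macrophages by 1.85 ± 0.508 (adjusted p = 0.00569). Neither macrophage population differed from normal microglia beyond the spread (0.447 with a 95% interval of -0.530 to 1.42, and 0.183 with one of -0.859 to 1.22).

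Single libraries mattered here too. The fall in tumour microglia against normal microglia did not pass without tumour microglia library 27 (-1.37, adjusted p = 0.158), normal microglia library 1 (-1.43, adjusted p = 0.318), 2 (-1.64), 18 (-1.55) or 26 (-1.59). Differentiated macrophages against tumour microglia gave 1.49 without differentiated macrophage library 28 (adjusted p = 0.0965). Undifferentiated macrophages gave 1.3 without differentiated macrophage library 31 and 1.55 without tumour microglia library 27, and neither value passed. The genes most like Hbegf were Aldh1a3, a retinaldehyde dehydrogenase (r = 0.851), and Amdhd1, an enzyme of histidine breakdown (r = 0.836).

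Hbegf is also induced by stress and by cell isolation, so immediate early genes were scored beside it. Of 12, 3 rose and 0 fell in tumour microglia against normal microglia, where Hbegf fell, beside 4.66% of all genes higher and 12% lower. Those 3 were Ier3 (2.27), Fosb (1.69) and Atf3 (1.66). In differentiated macrophages against tumour microglia, where Hbegf rose, 0 of the 12 rose and 2 fell, Jun (-1.43) and Egr1 (-1.41). All-gene shares there were 37% higher and 6.35% lower. In undifferentiated macrophages against tumour microglia, where Hbegf also rose, 4 of the 12 rose, namely Ier3 (1.59), Dusp1 (1.33), Zfp36 (1.27) and Junb (1.27). Jun (-1.09) and Egr1 (-1.5) fell there, beside 36.7% of all genes higher and 5.19% lower. The mean score of the 12 ran from -0.330 to 0.467 in differentiated macrophages, -0.185 to 0.798 in undifferentiated macrophages, -1.0 to 0.838 in tumour microglia and -0.950 to -0.475 in normal microglia. The part of these genes in the Hbegf differences was not tested.

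Tgfa, another EGF receptor ligand, did not pass in any comparison. Its lowest, median and highest scores were -2.61, 0.0166 and 2.14 in differentiated macrophages, -0.511, -0.0727 and 0.947 in undifferentiated macrophages, -0.436, -0.193 and 0.601 in tumour microglia and -0.481, 0.0487 and 0.764 in normal microglia. Differentiated macrophages covered the ranges of all the others. Their difference from tumour microglia was -0.06 with a 95% interval of -1.12 to 0.998.

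Of 18 measured partners in the EGF receptor system, 10 rose and 1 fell in differentiated macrophages against tumour microglia, and 12 rose and 1 fell in undifferentiated macrophages, beside 37% and 36.7% of all genes higher. Adam8, a protease of activated macrophages, had the largest difference in differentiated macrophages (3.71 ± 0.623, adjusted p = 9.96e-05), followed by the ligands Ereg (2.41), Egf (2.18) and Nrg1 (2.12). Egfr, the receptor itself, rose by 1.67. The main sheddases of these ligands, Adam17 (0.20, adjusted p = 0.613) and Adam10 (-0.48, adjusted p = 0.252), did not pass. In tumour microglia against normal microglia 4 of the 18 fell, namely Nrg1 (-1.39), Lrig1, an inhibitor of the receptor (-1.19), Egf (-1.15) and Egfr (-1.12). Adam9 rose by 2.07 there, in a comparison with 12% of all genes lower and 4.66% higher.

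Osm did not pass in any comparison, while its receptor chains did. The lowest, median and highest Osm scores were -1.21, -0.138 and 0.970 in differentiated macrophages, -0.502, 0.345 and 1.47 in undifferentiated macrophages, -1.38, 0.718 and 1.65 in tumour microglia and -2.71, -0.665 and 1.78 in normal microglia. All 4 ranges overlapped widely, with SDs of 1.25 in tumour microglia and 1.38 in normal microglia. Tumour microglia differed from normal microglia by 0.715 with a 95% interval of -0.600 to 2.03. Osmr, which binds oncostatin M, rose by 2.41 ± 0.382 in differentiated macrophages against tumour microglia (adjusted p = 6.14e-05), and the shared chain Il6st fell by 1.15 (adjusted p = 0.00667). Of 12 partners, 2 rose and 2 fell in that comparison, beside 37% of all genes higher and 6.35% lower. The others that passed were Pim1, a kinase induced by the pathway (1.53), and Jak1, which transmits the signal (-0.89). In undifferentiated macrophages 3 rose and 0 fell, beside 36.7% and 5.19% of all genes. In tumour microglia against normal microglia Socs3, a feedback inhibitor, rose by 2.16 (adjusted p = 0.000504) and Lifr by 1.31, and Osmr fell by 1.21. That is 2 of 12 higher and 1 of 12 lower, beside 4.66% and 12% of all genes.

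Grn varied less than nearly all other genes: its SD over the 32 libraries was 0.388, and 0.989% of genes had a smaller one. Its lowest, median and highest scores were -0.382, -0.152 and 0.226 in differentiated macrophages, -0.680, -0.236 and 0.221 in undifferentiated macrophages, -0.00514, 0.432 and 0.815 in tumour microglia and -0.516, -0.123 and 0.760 in normal microglia. Tumour microglia were the highest in median, with overlap of every pair of populations. The differences from tumour microglia were -0.651 ± 0.285 in differentiated macrophages (adjusted p = 0.0682) and -0.738 ± 0.298 in undifferentiated macrophages (adjusted p = 0.0501), and tumour microglia differed from normal microglia by 0.546 ± 0.275 (adjusted p = 0.174). None passed, and all 3 passed once the median of each library was subtracted, with -1.32, -1.46 and 0.791. The difference of undifferentiated macrophages from tumour microglia also passed without differentiated macrophage library 23, tumour microglia library 11, or normal microglia library 9 or 17 (-0.798 to -0.724).

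Among 9 partners of progranulin, 3 rose and 3 fell in differentiated macrophages against tumour microglia, again with the same counts in undifferentiated macrophages. All-gene shares, in the same order of populations, were 37% and 36.7% higher and 6.35% and 5.19% lower. In differentiated macrophages Gpnmb, a lysosomal glycoprotein of lipid-laden macrophages, rose by 3.16 ± 0.706 (adjusted p = 0.00113), Mmp12, a macrophage elastase that cleaves progranulin, by 2.44, and Psap, prosaposin, by 1.16. Epha2, reported as a progranulin receptor, fell by 1.36, and Sort1, which encodes sortilin, by 1.06 (adjusted p = 0.0215). Epha2 (1.66) and Ctsl (1.16), a lysosomal protease, were the 2 of 9 that rose in tumour microglia against normal microglia, beside 4.66% of all genes.

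Among 18 other secreted growth factors of myeloid cells, 8 rose and 2 fell in differentiated macrophages against tumour microglia, beside 37% of all genes higher and 6.35% lower. A further count of 11 rose and 2 fell in undifferentiated macrophages, beside 36.7% and 5.19%. The largest in differentiated macrophages were Spp1, osteopontin (2.55), Gdnf, a neurotrophic factor that draws microglia to glioma (2.33), Vegfa (2.24) and Bdnf (2.06). In tumour microglia against normal microglia 6 of the 18 fell and 0 rose, beside 12% of all genes lower and 4.66% higher. The largest falls were in Tgfb1 (-1.79), Gdnf (-1.70), Tgfb2 (-1.69) and Bdnf (-1.54). Over all 82 measured partners, 36 rose and 11 fell in differentiated macrophages against tumour microglia, and 42 rose and 7 fell in undifferentiated macrophages. These are shares of 43.9% and 51.2% higher, beside 37% and 36.7% of all genes. The shares lower were 13.4% and 8.54%, beside 6.35% and 5.19%, and these differences from all genes were not tested. The median differences of the 82 partners were 0.936 and 1.19, beside 0.652 and 0.715 for all genes. In tumour microglia against normal microglia 6 rose and 15 fell, or 7.32% and 18.3%, beside 4.66% and 12% of all genes. The median of the 82 was -0.196 there, beside -0.245 for all genes. Against normal microglia 25 rose and 9 fell in differentiated macrophages, or 30.5% and 11%, beside 24.7% and 8.02% of all genes. In undifferentiated macrophages 27 rose and 10 fell, or 32.9% and 12.2%, beside 21.8% and 6.18%. None of the 82 passed between the macrophage populations, where 0.0114% of all genes did.

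**Figure D3:**
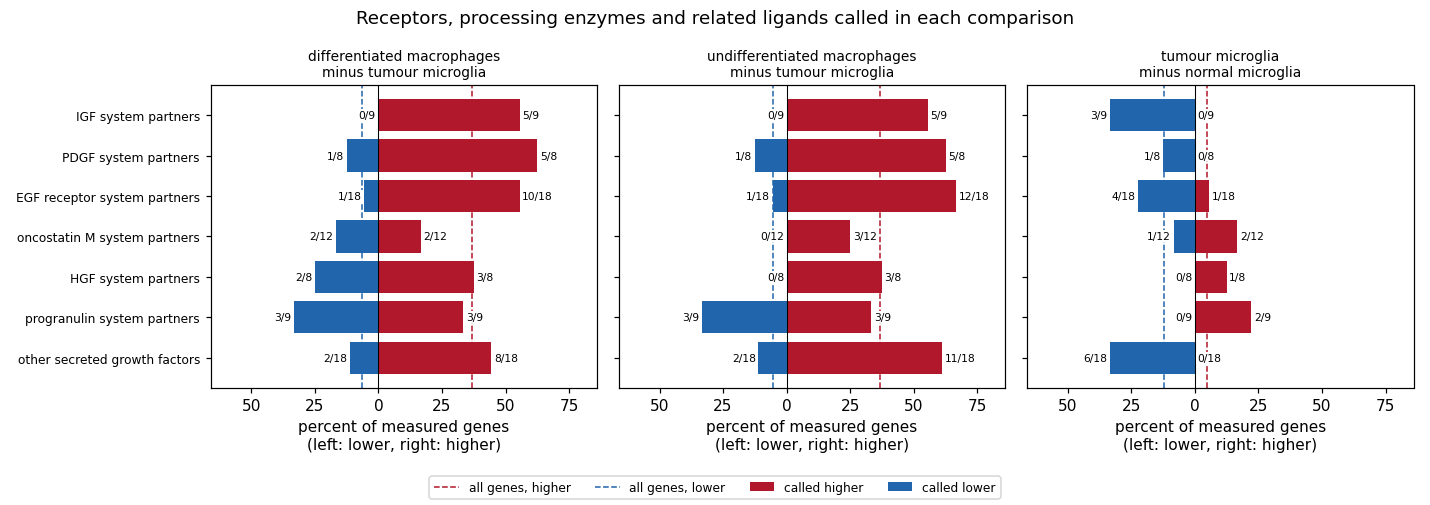
Share of measured genes (horizontal axis, percent) called higher (right) or lower (left) for each group of partner genes in 3 comparisons, with called and measured counts beside the bars and dashed lines at the share of all genes. The IGF and PDGF groups hold 5 genes higher in both macrophage populations against tumour microglia, of 9 and 8 measured.

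The whole table leaned the same way. The median difference of all genes was 0.652 in differentiated macrophages and 0.715 in undifferentiated macrophages against tumour microglia, and the medians of the 9 growth factors were -0.0607 and 0.448. With library medians subtracted, the rises of Pdgfc (1.93 and 1.57) and the falls of Pdgfb (-2.54 and -2.87) still passed against tumour microglia in both macrophage populations. Igf1 (1.57) and Hbegf (1.45) still passed in differentiated macrophages, and in undifferentiated macrophages they did not (0.874 and 1.13, adjusted p = 0.191 and 0.0738). Pdgfa then passed as lower in differentiated macrophages against tumour microglia (-1.25) and in undifferentiated macrophages against normal microglia (-1.48). Against normal microglia, the rises of Igf1 and Pdgfc in differentiated macrophages no longer passed (1.29 and 1.05).

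Genes of other cell types also differed between macrophages and tumour microglia. In differentiated macrophages against tumour microglia, 37% of all genes were higher and 6.35% lower. In that comparison 6 of 8 astrocyte markers rose and 1 fell, 4 of 5 neuron markers rose, and 4 of 5 dendritic cell markers rose. Of the markers of the oligodendrocyte lineage and glioma cells, 2 of 7 rose. Of 3 measured neutrophil markers 2 rose and 1 fell, and both measured T and NK cell markers and all 3 measured mast cell and basophil markers rose. The mean score of the astrocyte markers ran from 0.122 to 0.876 in differentiated macrophages, 0.0481 to 1.01 in undifferentiated macrophages, -1.14 to 0.134 in tumour microglia and -1.34 to 0.143 in normal microglia. That of the oligodendrocyte lineage and glioma cell markers ran from 0.0321 to 0.917, 0.0697 to 0.756, -1.27 to 0.177 and -1.02 to 0.171 in the same 4 populations. The part of these cells in the growth factor differences was not tested.

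The comparisons were also set side by side between recipient strains. Within each population the recipient strains came from different experiments, so strain and experiment cannot be told apart in these values. For every growth factor measured, the deposited differences between recipient strains also cancel when summed over the populations. A strain difference in any population is thus offset in the others, and a strain difference shared by all populations cannot be seen in these scores. Population differences in Pep3/CD45.1 recipients and in wild-type recipients differed at an adjusted p under 0.05 (limma, Benjamini-Hochberg) in 0 of 54 gene and comparison pairs, with an unadjusted p under 0.05 in 7 of them. Over all genes, 5.03% (884 genes) had such a difference in tumour microglia against normal microglia, 0.449% (79) in differentiated macrophages against tumour microglia, and at most 0.0227% in each of the other comparisons. The smallest adjusted p of a growth factor was 0.0655, for Pdgfc in tumour microglia against normal microglia.

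Of the 16 gene and comparison pairs that passed, 5 passed in every fit that left out 1 library, namely the 2 of Pdgfc against tumour microglia and 3 of the 4 of Pdgfb. None of the 16 changed sign in those fits. Under the 11 other settings, 6 of the 16 changed sign in at least 1, namely 2 of Igf1, 2 of Hgf, 1 of Pdgfa and 1 of Pdgfc, in fits of fewer libraries that left few degrees of freedom. When the 9 libraries that kept under 50% of their variation were left out and no covariates were fitted, 4 growth factors passed in differentiated macrophages and 3 in undifferentiated macrophages against tumour microglia, 2 and 1 against normal microglia, and 0 in tumour microglia against normal microglia. In the same order, 31%, 30.3%, 18.5%, 18.8% and 0.756% of all genes were called in that fit.

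**Figure D4:**
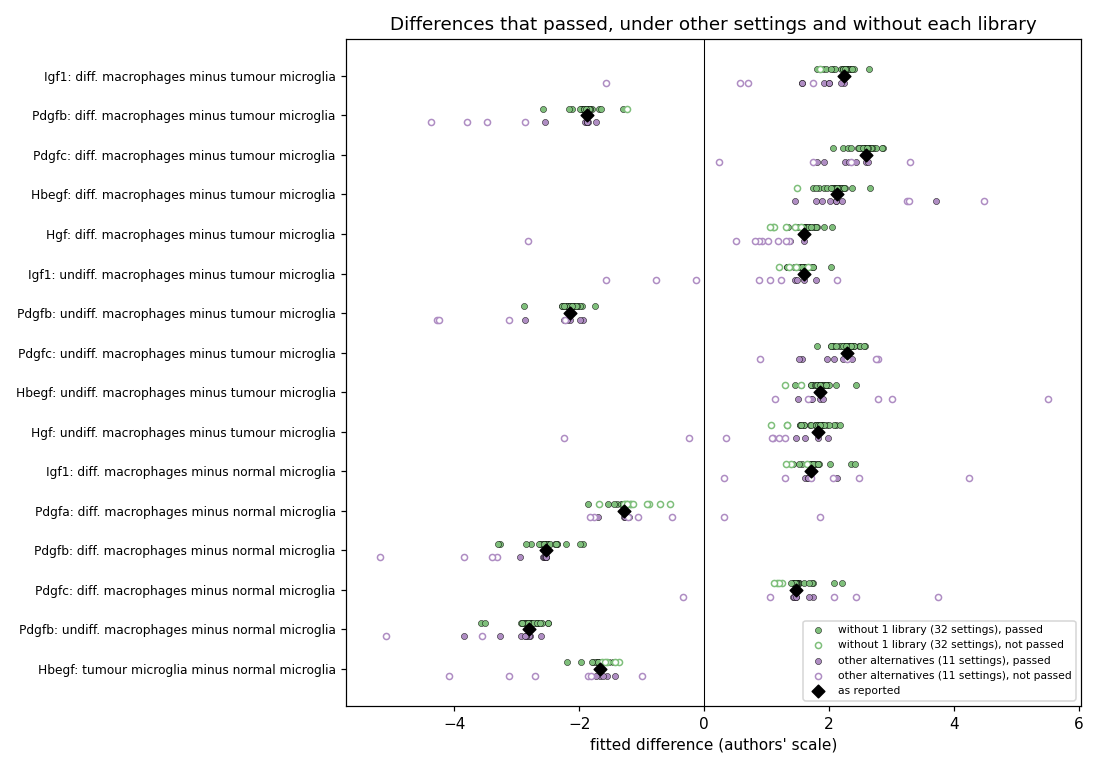
Fitted difference in score (horizontal axis) of the 16 gene and comparison pairs that passed; the diamond is the reported value, green points are the 32 fits without 1 library, purple points are 11 other settings, and open points did not pass. The Pdgfb points all lie left of 0, whereas some open purple points of Igf1 and Hgf against tumour microglia lie left of 0, on the side opposite to the reported value.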

How the data were processed

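Libraries were made from sorted cells with a low-input SMART-Seq kit, per the labels' protocols. The submitters' processing notes name FastQC, STAR 2.5.0a, RSEM 1.3.0 and the mouse build mm9. The authors' table is named for normalised counts, but the deposited values are scores that fall below 0, so no count test was used. Neither its scale nor the step that removed 11 sample directions is stated in the sources used here. From these scores, differences between populations, averaged over recipient strains, were fitted with limma 3.58.1 in R 4.3.3 over 17586 genes and 32 libraries. Of the 11 directions, those not already held by the population and strain means entered as covariates. The others lie within those means and could not be adjusted for. This left 15 residual degrees of freedom, against 24 without covariates, with robust variances and Benjamini-Hochberg adjustment. The method was tested on simulated data. The members and all gene lists were chosen with earlier results of these data known. Named were all members, the 2 genes most correlated with each member that passed, and up to 4 partner genes a list by size of difference; Igf1r, Met, Egfr, Adam17, Adam10, Sort1, Nrp1 and the immediate early genes were named after their values were seen. Alternatives changed covariates, library centring, weights and the libraries used. Promoter sequences are from a RefSeq table that holds 7 of the 10 genes.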

Additional observations from a re-analysis of the deposited data

Results flagged for a closer look

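Tgfa in tumour microglia had 1 library far from the others of its group: library 22 scored 0.601, while the next highest of the 8 scored 0.0211. Among 36 groups of 8 libraries this was the 1 group with such a library, and chance gives about 1 in 20 groups. Tgfa did not pass in any comparison.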

How the results depend on the processing

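Leaving out 1 library at a time gave 0 to 2 growth factors called in tumour microglia against normal microglia, 2 to 5 in differentiated and 2 to 6 in undifferentiated macrophages against tumour microglia, 1 to 4 and 1 to 2 against normal microglia, and 0 between macrophage populations. As reported, these counts were 1, 5, 5, 4, 1 and 0. The shares of all genes called without 1 library were 0.972% to 20.8%, 27.8% to 45.5% and 24.9% to 43.7% in the first 3 comparisons. Against normal microglia they were 10.5% to 34.9% and 11% to 32.1%, and between macrophage populations 0% to 0.0171%. Without covariates the count in undifferentiated macrophages against normal microglia was 4, beside 39.7% of all genes called. With library medians subtracted the counts were 3 in undifferentiated macrophages against tumour microglia, 2 and 2 in differentiated and undifferentiated macrophages against normal microglia, and 2 in tumour microglia against normal microglia. In the same order, 33%, 23.6%, 18.4% and 15.3% of all genes were called. With library weights the counts were 3 in undifferentiated macrophages against tumour microglia, 2 against normal microglia, and 0 in tumour microglia against normal microglia, beside 36.6%, 14.5% and 4.24% of all genes called. Without the 9 libraries that kept under 50% and without covariates, the counts were 3 in undifferentiated macrophages against tumour microglia, 2 in differentiated macrophages against normal microglia, and 0 in tumour microglia against normal microglia. In the same order, 30.3%, 18.5% and 0.756% of all genes were called.

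Fits of fewer libraries with covariates had 3 or 6 residual degrees of freedom. With the 9 libraries left out, and in wild-type recipients alone, the count was 0 in all comparisons. In wild-type recipients alone 0 of all 17586 genes were called in any comparison, so the count of 0 there describes the whole table. In Pep3/CD45.1 recipients alone the growth factor count was 0 except for 1 in undifferentiated macrophages against normal microglia, where 2.62% of all genes were called. With the compared populations alone the growth factor count was 1 in differentiated macrophages against tumour microglia and 1 in undifferentiated macrophages against normal microglia, and 0 elsewhere. In the first 0.313% and in the second 2.49% of all genes were called. Without the 9 libraries, sign was reversed for Igf1 in differentiated (-1.57) and undifferentiated macrophages (-1.57) and Hgf in undifferentiated macrophages (-0.24) against tumour microglia, and for Pdgfa (0.31) and Pdgfc (-0.35) in differentiated macrophages against normal microglia. In the fit of Pep3/CD45.1 recipients alone it was reversed for Hgf in differentiated (-2.82) and undifferentiated (-2.25) macrophages and Igf1 in undifferentiated macrophages (-0.77) against tumour microglia, and for Pdgfa in differentiated macrophages against normal microglia (1.85). The deposited means of these recipients, without covariates, kept the reported sign, with differences of 1.89, 1.78, 1.52 and -0.994 in the same order. With the compared populations alone, sign was reversed for Igf1 in undifferentiated macrophages against tumour microglia (-0.13). None of the reversed values passed, and the fit with covariates that left out the 9 libraries called 0 to 4 of all 17586 genes in any comparison. The means within experiments 3 and 4 were an alternative chosen after seeing the data, and kept the sign of all 10 called differences between macrophages and tumour microglia. The labels pair no libraries: no 2 share a number, and no label says that neighbouring numbers mark an animal or a batch. The numbers do run in 4 rounds of 8, each with 1 library of every population and recipient. A replicate block on these rounds, also chosen after seeing the data, gave 1, 4, 5, 4, 1 and 0 growth factors in the order of the first counts, with Hgf in differentiated macrophages against tumour microglia (1.31, adjusted p = 0.076) the call that was lost. Deviations from the population means had a median correlation of -0.00665 between libraries of the same round and -0.00323 between rounds, and for the 8 pairs of differentiated and undifferentiated macrophages with neighbouring numbers it ran from -0.647 to 0.312 with a median of 0.103. Depth is unknown, so its effect on low genes could not be assessed.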
